A study of Homo sapiens with 12 samples.

Results

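This account covers the genes that had at least 2 listed introns in the authors' deposited intron table for MTAP-null cells, and asks whether introns of 1 gene changed together with the drug. Of the 1549 introns listed for 1287 genes, 472 introns in 210 genes met the rule. Among them, 169 genes had 2 listed introns, 32 had 3, 8 had 4 and 1 had 6. The other 1077 genes had 1 listed intron each. The members were thus selected on the authors' test of usage in MTAP-null cells with AGI24512 against DMSO, whose adjusted p-value had to be under 0.05 for an intron to be listed. For the 472 introns that p-value ran from 1.23e-103 to 0.0495, and 29 of them lay just inside the limit, above 0.04. Introns outside it were not analysed here. Everything measured in that contrast is therefore a description of the listed introns and not independent evidence.

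HCT116 is an established human colon cancer cell line, and both engineered forms used here differ in the MTAP gene, which is absent in MTAP null and kept in MTAP Wt cells. Both forms received AGI24512, an inhibitor of MAT2A, or the solvent DMSO, so the 4 groups were MTAP-null DMSO, MTAP-null AGI24512, MTAP-WT DMSO and MTAP-WT AGI24512, each with 3 libraries of poly-A enriched RNA. Dose, duration and the number of engineered clones are not given in the labels. They do not say whether replicates were separate cultures, so a p-value here rests on a spread between libraries that may be technical only. The deposited tables analysed here hold splicing features only, so the MTAP transcript was not checked.

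MAT2A makes S-adenosylmethionine, the methyl donor of the cell. MTAP clears methylthioadenosine, which otherwise builds up and partly inhibits PRMT5, an arginine methyltransferase whose targets include the Sm proteins at the core of the splicing machinery. A detained intron is one that stays unspliced in a polyadenylated transcript held in the nucleus, while the other introns of that transcript have been removed. A transcript may hold several of them, and reads in such introns rise when splicing slows or when the gene makes more RNA.

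Introns of 3 genes are shown first as examples. RPLP0 encodes a protein of the ribosomal stalk, and its introns differed from each other in their change. RBM39 encodes an RNA-binding protein that takes part in splicing, and its introns moved by similar amounts. GAS5 is a non-coding gene that hosts small nucleolar RNAs, and its introns lost reads while their share of the gene's reads was higher. All lie on the minus strand and are written 5′ to 3′ as transcribed. The capitals mark the GT that opens and the AG that closes each intron. Where a window rather than a whole intron is shown, it holds 3 bases of exon and 12 bases of intron at the 5′ splice site, or 25 bases of intron and 3 bases of exon at the 3′ splice site. Sequences were read from GENCODE 29 transcripts (GRCh38) annotated as keeping the intron.
RPLP0 intron chr12:120198740-120198853, whole: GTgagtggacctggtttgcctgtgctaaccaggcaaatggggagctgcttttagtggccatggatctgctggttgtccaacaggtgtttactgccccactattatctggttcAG
RPLP0 intron chr12:120199206-120199309, whole: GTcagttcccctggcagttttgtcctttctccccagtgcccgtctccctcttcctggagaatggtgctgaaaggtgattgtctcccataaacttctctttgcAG
RPLP0 intron chr12:120200151-120200729, 5′ window: atcGTaagtgcaggg
RPLP0 intron chr12:120200151-120200729, 3′ window: acagttttactccatttttgagaAGgtc
RBM39 intron chr20:35739018-35739392, 5′ window: atgGTactgaccaaa
RBM39 intron chr20:35739018-35739392, 3′ window: atgttcttctatcaaccctgcttAGgat
RBM39 intron chr20:35740598-35740823, 5′ window: aagGTgagaaaaaac
RBM39 intron chr20:35740598-35740823, 3′ window: aatgcccatctatctctctttgtAGact
GAS5 intron chr1:173864507-173864674, 5′ window: cagGTtagtttaaac
GAS5 intron chr1:173864507-173864674, 3′ window: ggtattatttttcatcttcaaacAGgca
GAS5 intron chr1:173864705-173865228, 5′ window: aagGTatagcagttc
GAS5 intron chr1:173864705-173865228, 3′ window: actgtgtattgtcccttaatttcAGgac
Of the 20 bases before the closing AG, 13, 15 and 14 were pyrimidines in the upstream, middle and downstream RPLP0 introns, 16 in both RBM39 introns shown and 14 in both GAS5 introns.

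Not every listed feature was an intron of its own. The table cuts a gene into pieces at every annotated exon boundary, so 1 detained intron can give several rows. Of the 262 pairs of neighbouring features in the 210 genes, 61 abutted with no base between them and 69 were separated by exactly 1 annotated exon. A further 13 pairs shared the name of a detained intron without abutting, and 119 pairs had different names, with a median gap of 5599 bases and a shortest gap of 53 bases, in ZNF282. In 48 genes all features carried 1 shared detained-intron name, and 35 genes formed 1 continuous stretch. MBD1, which encodes a methyl-CpG-binding protein and had 6 features, the most of any gene, was of this kind, since all 6 carried 1 name. By contrast, 145 genes had no name shared between neighbours, and these give the cleaner view of separate introns.

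The features were shorter than those of genes with 1 listed intron, with a median width of 1452 against 2363 bases, and ranged from 4 to 157473 bases. Their median base mean, the authors' mean normalised count over the 6 libraries, was 52.6 against 39.7. An exact GENCODE 29 intron was found for 282 of the 472 (59.7%) and for 786 of the 1077 others (73.0%). Of the 275 of the 282 that do not lie on chromosome 8, 57 could be read from transcripts that keep the intron, and 56 of the 57 ran from GT to AG. Of the 282, 24 were the first intron of the matched transcript and 37 the last, and the median position was 0.625 of the way along its introns (0.596 for the others). A further name, that of an annotated transcript, was carried by 77 features (16.3%, against 7.34% in the other genes), and such a feature can lie in an exon. Whole small nucleolar RNA genes lay inside 3 features, in GLTSCR2, in the joined SENP3-EIF4A1 and EIF4A1 group and in the joined SNORA44 and SNHG12 group. None of these differences was tested.

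Depth is known only for the listed features, whose counts summed to between 113064 and 214530 per MTAP-null library and between 50919 and 65080 per MTAP-WT library. The first library stood apart from its group in 3 of the 4 groups. In MTAP-null AGI24512, replicate 1 differed from replicates 2 and 3 by a chi-square per degree of freedom of 3.39 and 5.12, against 1.57 between replicates 2 and 3. The matching values were 3.77, 3.54 and 1.45 in MTAP-WT DMSO and 4.09, 2.80 and 1.52 in MTAP-WT AGI24512. No 2 libraries agreed within sampling noise, so all 12 were kept. In 14 of the 210 genes the group name held more than 1 gene symbol. The strand used in counting is not given, so reads of overlapping or antisense genes cannot be told apart, in those groups or elsewhere.

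In MTAP-null cells the listed introns of 1 gene mostly had the same direction of change. The fitted read count was higher with AGI24512 for all introns in 173 of the 210 genes, lower for all in 8 and mixed in 29. In the share of the gene's reads (usage) from the authors' deposited table, the split was 186, 6 and 18, and usage was higher for 437 of the 472 introns (background 93.5%). By introns, 418 of 472 had a higher count (88.6%), against a background of 91.3% over all 1549 listed introns. With so high a share, most genes would have all introns higher without any link within a gene. The gene counts are therefore not read as such a link. Genes of the 145 with no shared name split into 125 all higher, 6 all lower and 14 mixed. These directions rest on the authors' size factors. When the libraries were scaled on the listed introns themselves (TMM scaling), the median change of all 1549 introns moved by -0.85 on the log2 scale and the genes split into 76 all higher, 61 all lower and 73 mixed. Without MTAP-null AGI24512 replicate 1 the split was again 173, 8 and 29.

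By edgeR's quasi-likelihood test of read counts, adjusted over all 1549 introns, 366 of the 472 introns rose and 27 fell, while 79 were not called. The background over the whole table was 77.6% risen and 4.65% fallen, and the shares here were 77.5% and 5.72%. Since the rule used this contrast, nothing is read from the counts of calls. With TMM scaling the calls were 79 risen and 79 fallen, with libraries scaled by their summed counts 209 and 55, and without AGI24512 replicate 1 they were 387 and 28. Ranges over the 3 libraries did not overlap for 348 introns that were higher (73.7%, background 75.9%) and 31 that were lower (6.57%, background 5.16%). Every listed intron rose in 143 genes and every one fell in 3, whereas 11 genes held both a risen and a fallen intron and 13 held no called intron.

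**Figure D1:**
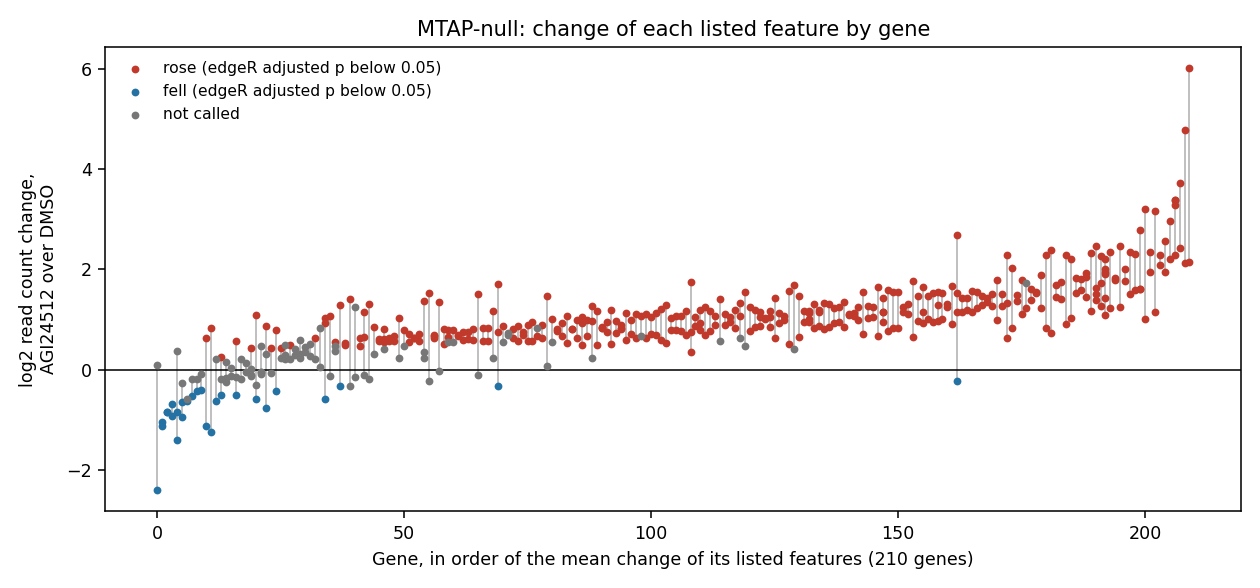
Log2 change of the read count with AGI24512 over DMSO in MTAP-null cells for each of the 472 listed features (points), with the features of 1 gene joined by a vertical line and the 210 genes in order of their mean change. Most lines lie wholly above 0, 173 genes in all, and 29 lines cross it. With TMM scaling the points lie lower, with a median shift of -0.86, and 73 lines cross 0.

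The size of the change was more alike within a gene than between genes. The median log2 change was 0.92 over the 472 introns (0.97 in genes with 1 listed intron), with a range from -2.41 to 6.02. The top value belongs to an intron of TPP2, a peptidase gene, that had 0 reads in all 3 DMSO libraries. Against a floor of 3 reads over the group, it was at least 7.80-fold higher. Between-gene differences made up 0.545 of the variance of log2 changes (intraclass correlation, 472 introns in 210 genes), and the standard deviation within a gene was 0.55. With abutting features counted as 1 stretch, the value was 0.489 over 376 stretches in 175 genes. In the 145 genes with no shared name it was 0.473 over 306 introns, and for usage from the authors' deposited table it was 0.390. The introns of a gene share the RNA level of that gene and the same libraries, so these values describe and do not test the agreement.

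The span from the lowest to the highest log2 change in a gene had a median of 0.40. It was under 0.5 in 122 genes and over 1 in 47. By position along the gene, the 5′-most listed feature had the larger change in 104 genes and the 3′-most in 106, with a median difference of -0.0044.

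Neighbouring pairs are described by position and naming, with no test. Pairs across 1 annotated exon had opposite signs in 1 of 69 cases, a median difference of 0.24 on the log2 scale and a Pearson correlation of 0.803 (Spearman 0.670, n = 69 pairs). Abutting pairs had a median difference of 0.26 and a Pearson correlation of 0.833 (Spearman 0.790, n = 61), with opposite signs in 7. The 119 other pairs with different names had a median difference of 0.48, opposite signs in 20 and a Pearson correlation of 0.304 (Spearman 0.265). The 13 other pairs that shared a name had a median gap of 152 bases and the largest median difference of the 4 classes, 0.72, with opposite signs in 5 and a Pearson correlation of 0.640 (Spearman 0.621). For usage from the authors' deposited table, the correlations were 0.802 across an exon, 0.842 for abutting pairs, 0.637 for the other pairs that shared a name and 0.208 for the other pairs with different names.

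The difference between pairs across an exon and other pairs with different names was also seen among deeper introns and among those with no transcript name. Where both introns had a base mean of at least 20, the Pearson correlation was 0.815 across an exon (57 pairs) and 0.277 for the other pairs with different names (77 pairs). Where neither carried a transcript name, it was 0.802 (65 pairs) and 0.354 (98 pairs). Abutting pairs did not keep their value there: among the 9 with no transcript name it was 0.225 (Spearman 0.050). These are correlations of count changes. For usage, those of the deeper pairs were 0.854 across an exon and -0.001 (Spearman 0.048) for the other pairs with different names. With no transcript name they were 0.801 and 0.232. The median gap across an exon was 102 bases, and the libraries are of paired reads, so 1 read pair may lie in both introns. Whether the authors counted such a pair for both is not given in the sources used here, and its part in the correlation was not tested. The pair classes and the count limit were chosen after the data were seen.

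**Figure D2:**
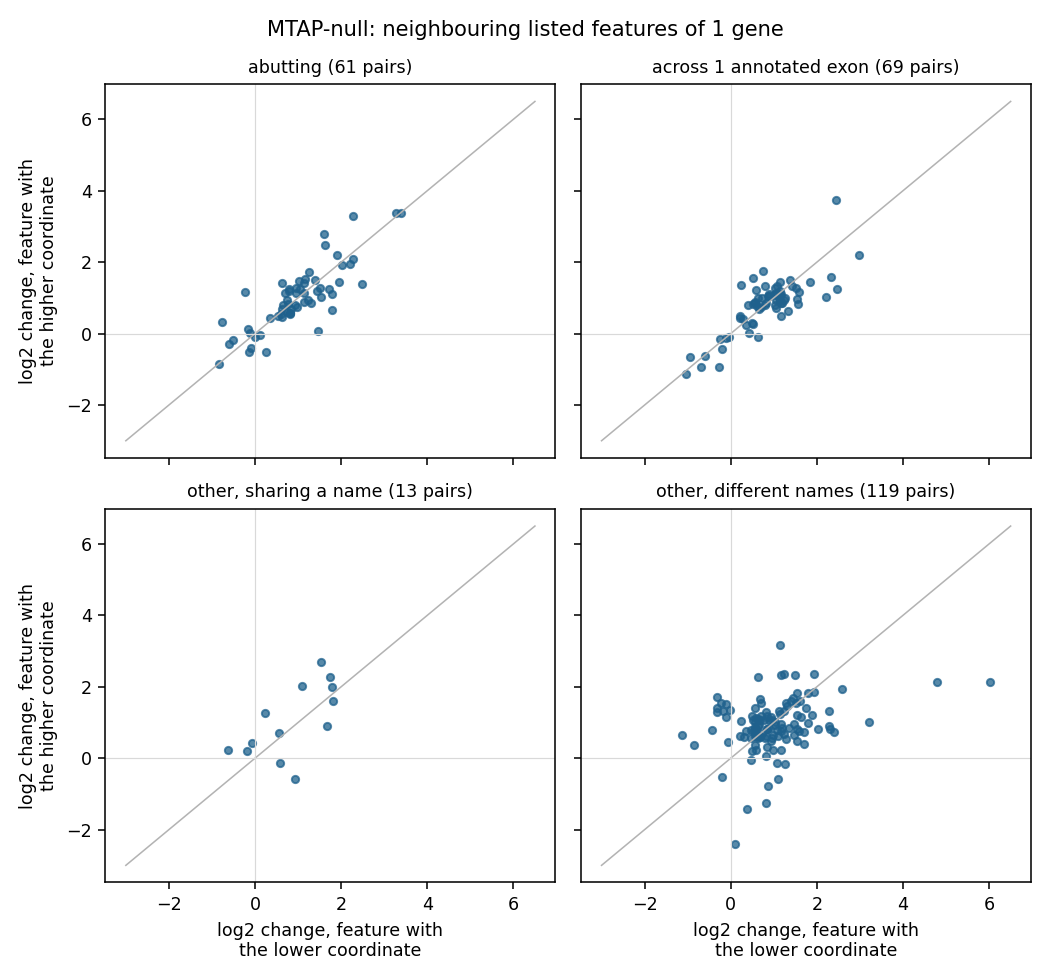
Each point is a pair of neighbouring features of 1 gene in MTAP-null cells. The x axis is the log2 count change of the feature with the lower coordinate and the y axis that of its neighbour, with the diagonal marking equal change. Abutting pairs (61) and pairs across 1 annotated exon (69) lie along the diagonal, the 119 other pairs with different names scatter widely around it, and the 13 other pairs that share a name have opposite signs in 5 cases.

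The most uniform genes came from several functions. In PAPOLA, a poly(A) polymerase, introns 12 and 20 of the matched transcript were listed. The intron at chr14:96537061-96542242 had normalised counts of 48.1, 41.8 and 44.2 with DMSO and 76.0, 101 and 98.8 with AGI24512. The intron at chr14:96560712-96562818 had 24.5, 35.9 and 34.9 with DMSO and 62.1, 65.8 and 63.4 with AGI24512. In both introns every AGI24512 value was above the highest DMSO value. The log2 changes were 1.03 ± 0.21 and 1.01 ± 0.23 (standard error), so they differed by far less than the standard error of either. With TMM scaling both were at 0.18 without a call.

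Other narrow genes with a base mean of at least 20 in every intron showed the same closeness at other levels of change. IDH3A, a subunit of mitochondrial isocitrate dehydrogenase, had log2 changes of 0.80 and 0.81. CSNK1E, a casein kinase, had 0.66 and 0.68, and RAI1, a nuclear protein, had 0.64 and 0.63. With TMM scaling the values of all 3 genes turned negative.

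Among genes whose introns all had a base mean of at least 20, the highest mean changes were in CAPN2, REEP3, AHI1, ZNF282, MPRIP and RASA1. For CAPN2, a calcium-dependent protease, the intron at chr1:223752957-223755479 had counts of 9.61, 10.7 and 3.49 with DMSO and 40.8, 48.8 and 58.7 with AGI24512. The intron at chr1:223759482-223761580 had 25.3, 41.8 and 31.4 with DMSO and 60.2, 153 and 168 with AGI24512. The groups did not overlap in either, and the folds were 6.23 and 3.87. REEP3, which shapes the endoplasmic reticulum, rose 3.43-fold and 4.10-fold in its pair of introns. AHI1, a gene of the primary cilium, rose 5.44-fold and 2.39-fold. RASA1, a GTPase-activating protein for RAS, rose 2.80-fold and 3.31-fold. In ZNF282, a zinc-finger protein, the folds were 2.91 and 3.69, and in MPRIP, which binds myosin phosphatase, 3.27 and 2.67.

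SBF2 and GAS5 were among the 3 genes in which every listed intron fell, and 2 of 3 introns fell in MTHFD1. SBF2 is a myotubularin-family protein that acts on small GTPases, and its listed introns lie on either side of 1 exon. The intron at chr11:9809003-9812531 had counts of 253, 278 and 297 with DMSO and 107, 143 and 131 with AGI24512. The intron at chr11:9808186-9808900 had 177, 153 and 143 with DMSO and 86.2, 76.0 and 68.0 with AGI24512. No AGI24512 value reached a DMSO value, and the folds were 0.460 and 0.487. Usage in the authors' deposited table was lower too, by a log2 change of -0.44 and -0.40.

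MTHFD1, an enzyme of folate metabolism, had 3 listed introns in a row. Their log2 count changes were -0.27, -0.95 and -0.66, of which the second and the third fell. In each intron the AGI24512 libraries all lay below the DMSO libraries, for instance 143, 115 and 109 with DMSO and 49.1, 71.4 and 70.8 with AGI24512 at chr14:64444735-64448216. Usage in the authors' deposited table was also lower, at -0.34, -0.68 and -0.53.

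GAS5 separated counts from usage. Its introns, shown above, had counts of 533, 556 and 507 with DMSO and 241, 338 and 409 with AGI24512 for chr1:173864507-173864674, and of 1051, 1171 and 1100.0 with DMSO and 536, 554 and 649 with AGI24512 for chr1:173864705-173865228. Both fell, with folds of 0.619 and 0.523 and no overlap between groups. In the authors' deposited table, however, usage was higher by 0.56 and 0.43 on the log2 scale. Usage is taken relative to the rest of the gene.

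In 26 of the 210 genes (12.4%) the introns differed from each other in their change, by edgeR's test of differences within a gene (diffSpliceDGE, adjusted over the 210 genes). The RNA level of the gene cancels in such a difference. The number of calls nevertheless depended on the scaling, with 37 genes under TMM scaling and 35 with summed counts, and all 26 were among them in both. Of the 26, 20 had mixed signs and 6 were higher in every intron. Leaving out any 1 library gave 19 to 43 genes, 43 of them without AGI24512 replicate 1, and 17 of the 26 were called in all 6 such fits. With features that carry a transcript name left out, 10 genes were called.

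RPLP0 had the smallest p of the 26. Its upstream intron at chr12:120200151-120200729 had normalised counts of 2374, 2354 and 2441 with DMSO and 1011, 867 and 821 with AGI24512. The middle intron at chr12:120199206-120199309 had 42.8, 47.6 and 38.4 with DMSO and 63.9, 49.9 and 53.1 with AGI24512. For the downstream intron at chr12:120198740-120198853 the counts were 1041, 998 and 994 with DMSO and 577, 568 and 540.5 with AGI24512. The upstream and downstream introns lost reads in every AGI24512 library, while the middle one, with far fewer reads, was higher in all 3. Log2 changes were -1.41 ± 0.08, 0.37 ± 0.22 and -0.85 ± 0.09 (standard error). The middle intron was not called, and its change was -0.46 with TMM scaling and -0.07 with summed counts. They are introns 2, 3 and 5 of their matched transcripts, and none carries a transcript name. The detained-intron name of the upstream intron also holds the symbol of another gene, GCN1L1.

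PSMD14, a deubiquitinase of the proteasome lid, had a fallen and a risen intron. At chr2:161326174-161367477 the counts were 887, 886 and 835 with DMSO and 725, 657 and 699.8 with AGI24512. At chr2:161395204-161408836 they were 67.3, 55.4 and 61.7 with DMSO and 117, 144 and 193 with AGI24512. The groups did not overlap in either intron, and the folds were 0.798 and 2.46. The rise was not called with TMM scaling (log2 change 0.44).

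COA1, an assembly factor of cytochrome c oxidase, had 2 risen introns and a fallen feature that carries a transcript name. The intron at chr7:43609642-43631011 had counts of 309, 311 and 304 with DMSO and 553, 637 and 685 with AGI24512. For chr7:43633409-43639246 they were 65.5, 86.5 and 68.7 with DMSO and 98.2, 167 and 157 with AGI24512. The 192-base feature at chr7:43639257-43639448 had 391, 358 and 352 with DMSO and 269.7, 220.0 and 238 with AGI24512. Its groups did not overlap, and the log2 changes of the 3 were 1.02, 0.93 and -0.60. In ATP2C1, a calcium pump of the Golgi, the feature with a transcript name fell by a log2 change of -0.77, another rose by 0.87 and the third, at 0.32, was not called. With TMM scaling the risen introns of COA1 were at 0.17 and 0.07 without a call. The rise in ATP2C1 was not called with TMM scaling (0.01) or with summed counts (0.40), and its uncalled feature fell with TMM scaling (-0.53). In SLC9B2, a sodium-proton exchanger, the values were -0.22 and 1.54, the former in the feature with a transcript name.

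The widest spans among genes with a base mean of at least 20 in every intron were in TIMM17B, TSGA10, RPLP0, LINC00339, SLC9B2 and PAX8-AS1. TIMM17B, a mitochondrial import protein, had a 47-base feature with a transcript name whose counts were 76.0, 49.5 and 58.2 with DMSO and 10.2, 5.67 and 17.7 with AGI24512. Its other feature, an annotated intron, had a log2 change of 0.10 ± 0.29 (standard error), so the groups were apart in the first and overlapped in the second. TSGA10, a gene known for its role in testis, fell to 0.420-fold in 1 intron and rose 1.72-fold in another, a rise that was absent with TMM scaling (log2 change -0.0027). The call of that rise was also lost with summed counts, with DESeq2 and without AGI24512 replicate 3 or DMSO replicate 1 or 2. LINC00339, a non-coding gene, had -1.13 in a 4-base feature and 0.64 in a 2745-base intron, the latter -0.21 with TMM scaling. Its rise was not called with summed counts, with DESeq2, without AGI24512 replicate 2 or 3, or without DMSO replicate 1 or 3. Features in the joined groups UBE2F-SCLY with SCLY and UBE2F, and HILPDA with LOC102724660, were also called in opposite directions, but each may hold reads of more than 1 gene. The fall in the HILPDA group (log2 change -0.23) was not called with DESeq2 or without AGI24512 replicate 2 or any 1 of the DMSO libraries. In the UBE2F group, 1 of 2 rises was not called with summed counts (0.31) and was at -0.08 with TMM scaling.

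MBD1 differed in size without a change of sign. It rose in all 6 features, with log2 changes from 1.09 to 2.21, although its features belong to 1 detained intron. Only 1 of the 6 fits without a library kept the call of a difference for MBD1.

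**Figure D3:**
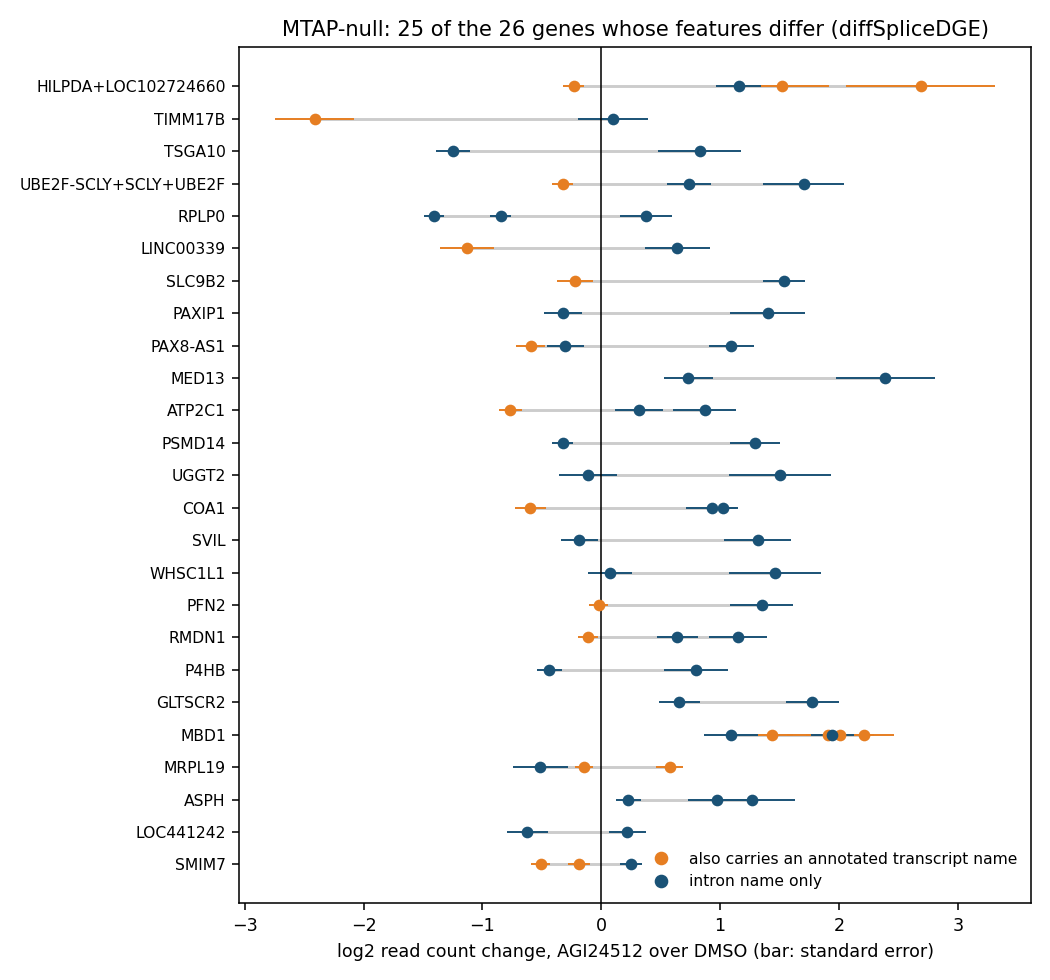
Log2 change of the read count with AGI24512 over DMSO in MTAP-null cells (x axis) for each listed feature of 25 of the 26 genes whose features differed, with bars for the standard error. Orange marks features with a transcript name. In 20 of the 25 genes the points lie on both sides of 0, and TMM scaling moves the points to the left by similar amounts, so that signs near 0 turn.

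Features with a transcript name were among the exceptions but were not the whole of them. They occurred in 61 of the 210 genes, in 13 of the 26 that differed and in 17 of the 29 with mixed signs. In the 58 genes that held both kinds, the feature with a transcript name had the lower change in 32 and the higher in 26, with a median difference of -0.06. Of the 77 features with such a name 51 rose (66.2%) and 9 fell, and of the 395 others 315 rose (79.7%) and 18 fell. The background over all 1549 listed introns was 77.6% risen and 4.65% fallen. The difference between these shares was not tested.

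The gene lists, which were drawn up with earlier results of these data known, held members in 11 of 16 cases, and each list is small. Splicing regulators were RBM39, RBM5 and TIA1, and all 8 of their listed features rose (median log2 change 0.76, against 0.95 over all listed introns, of which 77.6% rose). With TMM scaling 6 of the 8 were negative and 0 were called, and with summed counts 1 was called. RBM39 had 0.89, 0.84 and 0.82, the last 2 in features that carry a transcript name. Its intron at chr20:35740598-35740823 had counts of 27.1, 25.3 and 27.9 with DMSO and 37.1, 46.5 and 57.8 with AGI24512, and the groups did not overlap. RBM5, another splicing factor, had 0.69, 0.62 and 0.68, the last 2 in abutting features that share a detained-intron name. TIA1, which binds U-rich sequence next to splice sites, had 0.71 and 1.54. The splicing kinases CLK3 and CDK10 rose in all 4 introns, from 0.54 to 1.29, with 2 of the 4 negative and 0 called under TMM scaling and 1 called with summed counts. Leaving out AGI24512 replicate 2 or 3 or any 1 of the DMSO libraries ended a call in RBM5. A call in CDK10 was lost without DMSO replicate 1 or 3 and without AGI24512 replicate 2 or 3, and one in CLK3 without DMSO replicate 1 or 2.

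All 8 introns of the DNA repair genes REV1, TOPBP1 and TP53BP1 rose, with a median of 1.03, against 77.6% of all listed introns. With TMM scaling 6 of the 8 were positive and 1 was called, and with summed counts 4 were called. REV1, a translesion polymerase, had 4 introns between 0.94 and 1.16. TOPBP1, which activates the ATR kinase, rose 4.80-fold and 2.04-fold, and TP53BP1, which acts in double-strand break repair, had log2 changes of 0.70 and 0.76. The lower of the 2 base means was 15.9 in TOPBP1 and 134 in TP53BP1.

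Regulators of small GTPases were split by gene rather than within genes. Both introns rose in each of ARFGAP1, ARHGAP12, RALGAPB and RASA1, and both fell in SBF2, 8 against 2 introns. With TMM scaling the signs were the same, but only 2 of the 8 rises were called, and with summed counts 7 were. Of 10 introns in the ubiquitin system genes FBXO18, MARCH7, RNF111, UBE2G2 and USP53, 9 rose and 1 was not called. With TMM scaling 8 of the 10 were positive and 2 called, and with summed counts 6 were called. All 6 introns of the traffic genes STX4, TRAPPC12 and VPS8 rose, but with TMM scaling 4 were positive and 0 called, and with summed counts 2 were called. The background for these counts is again 77.6% risen. A call was also lost without AGI24512 replicate 3 in RALGAPB, RNF111 and VPS8, without AGI24512 replicate 2 in VPS8, and without DMSO replicate 1 in RALGAPB, BCL2L13 and VPS8. NDC80, a kinetochore protein, rose 2.87-fold and 5.30-fold, and LARS, the leucyl-tRNA synthetase, 3.01-fold and 2.23-fold. The lower of the 2 base means was 12.2 in NDC80 and 37.4 in LARS. In BCL2L13, a BCL2-family protein, 1 of 2 introns rose and both were negative with TMM scaling. MBD1 was the one chromatin gene and MTHFD1 the one gene of methionine and folate metabolism. No gene of the lists for DNA replication, RNA decay and export, RNA modification, the core spliceosome or protein arginine methylation had 2 listed introns.

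Other genes with many listed features were PIEZO1, ATP11A, EIF4E, ABI1 and SLC38A10. In PIEZO1, a mechanosensitive channel, 4 features had log2 changes between 0.40 and 0.81, and 2 of them abut and share a detained-intron name. ATP11A, a phospholipid flippase, had 4 features between 0.95 and 1.43, and EIF4E, the cap-binding protein, 4 between 1.39 and 2.47, all of them pieces of 1 detained intron in each gene. ABI1, a part of the WAVE complex, had 3 introns between 0.86 and 1.16. All 4 PIEZO1 features were negative with TMM scaling. SLC38A10, an amino acid transporter, had 1 risen feature of 4, with log2 changes of 0.43, 0.0045, -0.11 and -0.12, and the first was -0.42 with TMM scaling. Its call was lost with DESeq2 and without replicate 2 or 3 of either group. Its usage in the authors' deposited table was higher in all 4, by 0.68, 0.46, 0.41 and 0.41.

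The MTAP-WT libraries were not used by the rule, although the MTAP-WT table lists only features that passed the authors' test in those libraries. Of the 210 genes, 27 (12.9%) appeared there with 40 features, against 76 of the 1077 genes with 1 listed intron (7.06%), a difference that was not tested. A gene with more listed introns has more chances to appear, so these shares are not like for like. By feature, 35 of the 472 were listed in both tables, against 92 of all 1549. By edgeR adjusted over the 258 listed MTAP-WT features, 29 of the 40 rose and 6 fell, against a background of 70.5% risen and 14.3% fallen. With TMM scaling there were 5 risen and 9 fallen, and this scaling moved the median of all 258 features by -0.57. Without MTAP-WT DMSO replicate 1 they were 28 and 6, and without AGI24512 replicate 1 they were 30 and 6. The groups did not overlap for 28 that were higher (background 69.4%) and 6 that were lower (background 14.3%). In the authors' deposited table, usage was higher for 33 of the 40, against 79.1% of the whole table.

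In the MTAP-WT cells, too, the listed features of 1 gene mostly had the same sign. Of the 210 genes, 9 had at least 2 features in the MTAP-WT table, 22 features in all. Their read counts were all higher with AGI24512 in 7 genes, all lower in SBF2 and mixed in PAX8-AS1, and 4 of the 17 genes with at least 2 features in that table were mixed. Of all 258 listed MTAP-WT features, 208 had a higher count, so the shared signs are not read as a link within genes. The 7 genes include GALNT18, whose features abut and were not called (0.01 and 0.41). With TMM scaling, features of SLC38A10, TM9SF1 and TMCO3 that had risen turned negative. Only PAX8-AS1 had features that differed from each other (diffSpliceDGE adjusted p = 0.000618), 1 of 9 genes, against 3 of those 17 (17.6%). Without AGI24512 replicate 2 the count was 2 of 9.

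SBF2 fell in both genotypes by nearly the same amount. In MTAP-WT cells the intron at chr11:9809003-9812531 had counts of 262, 233 and 203 with DMSO and 110.4, 96.7 and 94.4 with AGI24512. The intron at chr11:9808186-9808900 had 174, 136 and 139.6 with DMSO and 59.4, 58.8 and 77.6 with AGI24512. No AGI24512 library reached a DMSO library in either. Log2 changes were -1.21 ± 0.15 (edgeR adjusted p = 1.51e-12) and -1.21 ± 0.17 (edgeR adjusted p = 2.4e-10). The drug-by-genotype terms were 0.09 ± 0.20 and 0.16 ± 0.23, which are within their standard errors of 0.

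COA1 rose in both genotypes in the same introns. In MTAP-WT cells chr7:43609642-43631011 had counts of 208, 403 and 307 with DMSO and 623, 494 and 552 with AGI24512, and chr7:43633409-43639246 had 42.2, 51.9 and 61.4 with DMSO and 119.6, 82.7 and 94.4 with AGI24512. The groups did not overlap, and the log2 changes were 0.87 and 0.94 (edgeR adjusted p = 1.08e-09 and 3.98e-06). Both calls were lost with TMM scaling, where the changes were 0.30 and 0.36. The feature with the transcript name that fell in MTAP-null cells was not in the MTAP-WT table.

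SNED1, an extracellular matrix protein, and USP53, a deubiquitinase-family protein, rose in 2 features each in MTAP-WT cells. Their log2 changes in MTAP-WT cells were 0.79 and 0.80 for SNED1 and 1.09 and 0.73 for USP53. The groups overlapped in the second SNED1 feature. TMCO3, a membrane transporter, rose in 2, by 0.46 and 0.65, although the first call was lost when AGI24512 replicate 2 or 3 or DMSO replicate 2 or 3 was left out, with log2 changes between 0.28 and 0.50. In SLC38A10, 2 of 4 features rose, by 0.81 and 0.52, and the other changes were 0.24 and 0.07. None of the rises of these 4 genes was called with TMM scaling. In MTAP-null cells the first of these features in SNED1 and TMCO3 and the second risen one in SLC38A10 were not called. The first USP53 feature was not listed for MTAP-null cells. The other risen feature of each gene rose in MTAP-null cells too.

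TM9SF1, a membrane protein of the secretory pathway, differed between the genotypes. Its features carry names with the symbol of NEDD8, a neighbouring gene. In MTAP-null cells the feature at chr14:24192357-24192598 had counts of 62.0, 54.4 and 64.0 with DMSO and 58.4, 52.2 and 58.7 with AGI24512. In MTAP-WT cells the same feature had 62.4, 59.2 and 58.3 with DMSO and 100.2, 104 and 106 with AGI24512. The ranges overlapped in MTAP-null cells and were apart in MTAP-WT cells, although the MTAP-WT call was lost with TMM scaling. The log2 change was -0.09 ± 0.20 against 0.78 ± 0.18, and the drug-by-genotype difference was -0.87 ± 0.22 (edgeR adjusted p = 0.00637). The other shared features went the same way without passing, with differences of -0.69 (edgeR adjusted p = 0.0625) and -0.46 (edgeR adjusted p = 0.197). In the authors' deposited tables, however, usage of the first of these features was higher in both genotypes, by 0.32 in MTAP-null and 0.49 in MTAP-WT cells.

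Of the 40 features, 35 in 24 genes were listed at the same coordinates in both genotypes and could be tested for a drug-by-genotype difference over all 12 libraries. They had passed the authors' tests in both genotypes, so the MTAP-null libraries that chose the members also enter this test. The count change had the same sign in 29 and opposite signs in 6, and usage in the authors' deposited tables had the same sign in 34. The difference passed in 6 of the 35, against 17 of the 92 features listed in both tables (18.5%), and 14 of the 35 had an unadjusted p under 0.05. Without the libraries that stood apart, the count was 9 (MTAP-null AGI24512 replicate 1), 8 (MTAP-WT DMSO replicate 1) and 6 (MTAP-WT AGI24512 replicate 1).

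RPLP0 had the largest difference among the 6. Its upstream intron had counts of 2238, 1939.8 and 1877 with DMSO and 1327, 1579 and 1365 with AGI24512 in MTAP-WT cells. As in MTAP-null cells, the AGI24512 libraries all lay below the DMSO libraries, but by a log2 change of -0.50 ± 0.11 against -1.41 ± 0.08. The drug-by-genotype difference was -0.90 ± 0.13 (edgeR adjusted p = 5.31e-05). The name of this intron also holds the symbol GCN1L1. The other RPLP0 introns were not in the MTAP-WT table.

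PAX8-AS1, a transcript antisense to the thyroid factor gene PAX8, differed between genotypes in 1 feature and not detectably in another. Since the strand used in counting is not given, reads of PAX8 cannot be told apart from its own. The feature at chr2:113265581-113267023, which carries a transcript name, had 417, 477 and 379 with DMSO and 285, 278 and 281 with AGI24512 in MTAP-null cells. In MTAP-WT cells it had 485, 459 and 399.9 with DMSO and 389, 456 and 459.5 with AGI24512. The groups were apart in MTAP-null cells and overlapped in MTAP-WT cells, and the difference was -0.55 ± 0.15 (edgeR adjusted p = 0.0117). Without MTAP-null DMSO replicate 2 it was -0.46 (edgeR adjusted p = 0.0514). At chr2:113236623-113238089 the change was 1.09 and 0.83, with a difference of 0.26 ± 0.22 (edgeR adjusted p = 0.452).

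In the other 3 the change was higher in MTAP-null cells. GALNT18, a glycosyltransferase, had 0.69 in MTAP-null and 0.01 in MTAP-WT cells at chr11:11341005-11362015 (difference 0.68 ± 0.21, edgeR adjusted p = 0.0284). That call was lost with summed counts (0.59, edgeR adjusted p = 0.0743) and in 6 of the 12 fits without a library, where the difference lay between 0.58 and 0.68 and the edgeR adjusted p between 0.0563 and 0.0962. Its abutting feature differed by 0.72 ± 0.29 (edgeR adjusted p = 0.0875). ESPN, which bundles actin, had 1.11 and 0.50 at chr1:6452097-6457183 (difference 0.61 ± 0.17, edgeR adjusted p = 0.0116). In ASPH, an aspartate hydroxylase of the endoplasmic reticulum, the change was 0.23 in MTAP-null and -0.29 in MTAP-WT cells, the latter not called without MTAP-WT AGI24512 replicate 3 (difference 0.51 ± 0.13, edgeR adjusted p = 0.00637). MBD1, ABHD17A, a depalmitoylase, and EIF4E had differences of 0.60, 0.95 and 0.74 that did not pass.

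**Figure D4:**
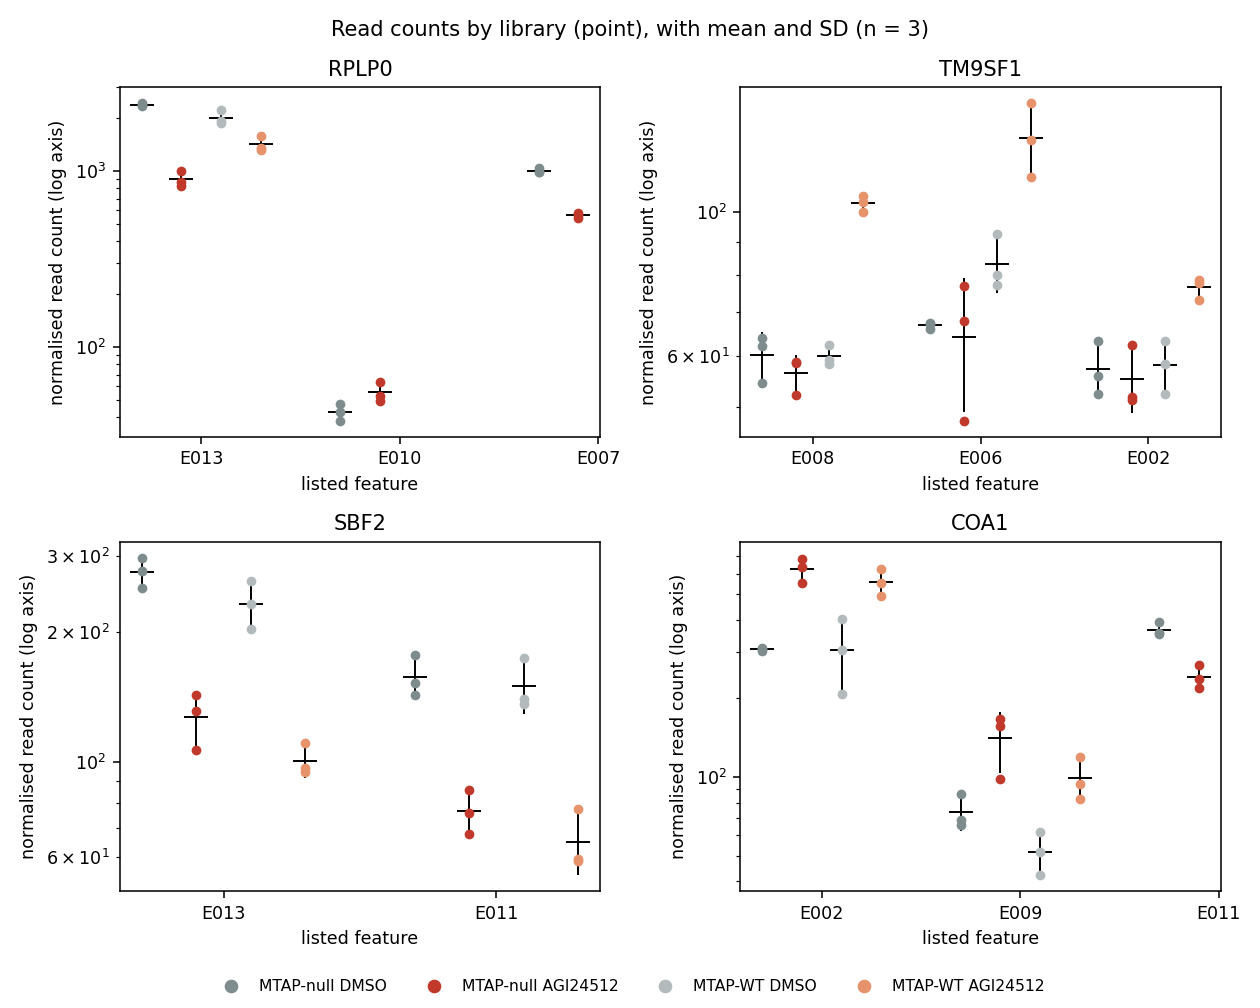
Normalised read counts by library (points, log axis) with mean and SD (n = 3) for listed features of RPLP0, TM9SF1, SBF2 and COA1. Features are in transcript order, except in COA1, where the order is reversed. The TM9SF1 feature whose log2 change in MTAP-null cells was 0.46 is not drawn. MTAP-WT values are drawn only where the MTAP-WT table lists the feature. With the authors' size factors SBF2 is lower with AGI24512 in both genotypes, and TM9SF1 is higher in MTAP-WT cells, 1 of its features turning negative with TMM scaling.

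**Figure D5:**
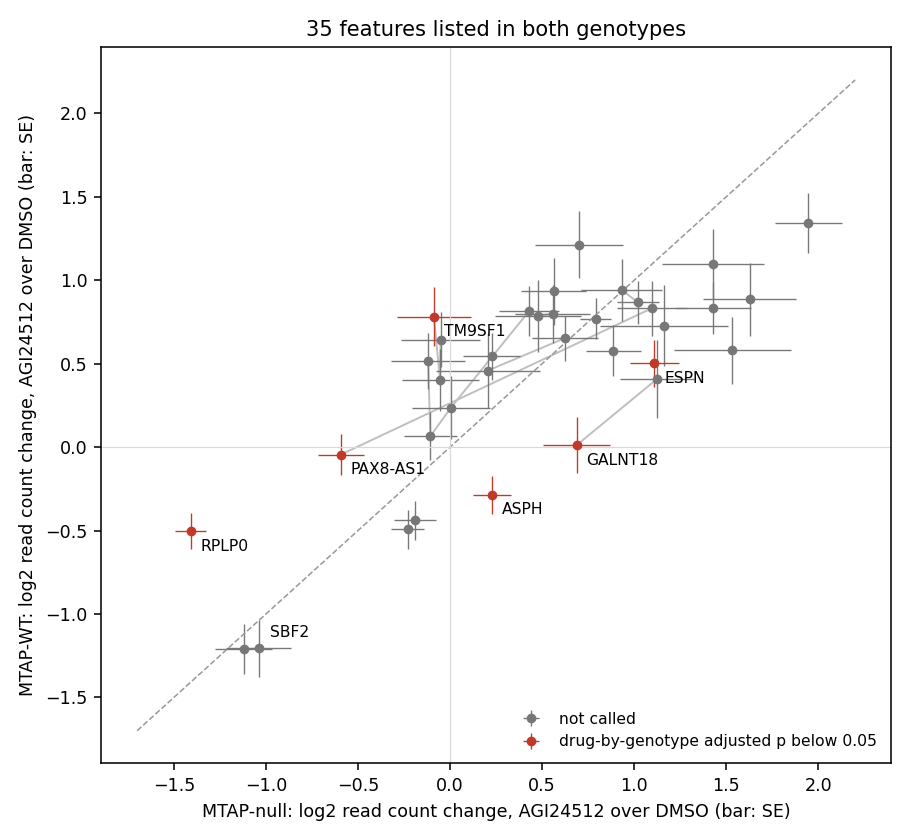
Log2 count change with AGI24512 over DMSO in MTAP-null (x axis) and MTAP-WT cells (y axis) for the 35 features listed in both, with bars for the standard error and grey lines joining features of 1 gene. The 6 red features have a drug-by-genotype adjusted p under 0.05, and the dashed line marks equal change.

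A separate kind of table from the same libraries, made with rMATS from reads across splice junctions, listed few of these genes. An event with FDR under 0.05 in MTAP-null cells was listed for 6 of the 210 genes (2.86%), against 46 of the 1077 genes with 1 listed intron (4.27%). For RBM39, the authors' deposited table of retained introns listed chr20:35739018-35740524 and chr20:35740598-35740823. The former has the same 3′ end as the first RBM39 intron shown above but another 5′ end. The latter has the coordinates of the second. Inclusion differed between sample set 1 and sample set 2 by 0.214 (authors' FDR 0.000581) and 0.169 (authors' FDR 0.00844) in the authors' deposited table. Which treatment made up set 1 cannot be read from the headers, and no direction is given. The other genes were CD44, a cell-surface adhesion receptor, COA1, MBD1, SNED1 and SMIM7, whose listed events were skipped exons (CD44, COA1, MBD1, SNED1), mutually exclusive exons (CD44) or an alternative 5′ splice site (SMIM7). RBM39 also had an alternative 3′ splice site.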

How the data were processed

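Poly-A enriched RNA of 12 HCT116 libraries was sequenced as paired-end reads, per the labels' protocols. The authors counted reads per feature and tested feature usage with DEXSeq, per the file headers and table names. Aligner, genome build, strand use and versions were not given in the sources used here. The deposited counts are whole reads per feature and library. The deposited base mean is a signal, the authors' mean of size-factor-normalised counts. Usage is a deposited score per group, and its deposited log2 fold change was turned to AGI24512 over DMSO. The deposited p-values come from the authors' tests, and both intron tables list only features with an adjusted p-value under 0.05. rMATS inclusion differences are deposited scores. No column belonged to another series (0 columns).

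Size factors were recovered from the counts and base means, with a largest error of 5.9e-12. Counts were fitted with edgeR 4.0.16 in R 4.3.3 (quasi-likelihood, Benjamini-Hochberg over all features of a table, threshold 0.05, no filter on low counts). Differences within a gene were tested with diffSpliceDGE, which was added for MTAP-WT cells after the data were seen. The fits were tested on simulated data. Alternatives were TMM and summed-count scaling, a low-count filter, DESeq2 1.42.0, a replicate block, each library left out, and stricter feature sets. Coordinates are those of the deposited tables. They coincided with GENCODE 29 introns (GRCh38) for 1068 of 1549 MTAP-null and 160 of 258 MTAP-WT features.

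Members and lists were chosen with earlier results of these data known. Named genes were those with the most features, the widest and narrowest spans and the highest and lowest mean changes (base mean of at least 20 in every intron), the strongest opposite calls, those listed for MTAP-WT cells, and the members of gene lists. Some genes that met this rule are not reported here.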

Additional observations from a re-analysis of the deposited data

Results flagged for a closer look

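The 6 features below are given because the drug effect differed between genotypes in a test of the difference itself (edgeR drug-by-genotype term, adjusted over the 92 features listed in both tables). Values are log2 changes in MTAP-null minus those in MTAP-WT cells. RPLP0 at chr12:120200151-120200729 differed by -0.90 ± 0.13 (SE), and every alternative run kept the call. TM9SF1 at chr14:24192357-24192598 differed by -0.87 ± 0.22 and kept the call as well. PAX8-AS1 at chr2:113265581-113267023 differed by -0.55 ± 0.15, and the call was lost without MTAP-null DMSO replicate 2. ASPH differed by 0.51 ± 0.13 and ESPN by 0.61 ± 0.17, and both kept the call under every alternative run. GALNT18 differed by 0.68 ± 0.21, but the call was lost with summed counts (0.59, edgeR adjusted p = 0.0743). It was also lost without MTAP-null AGI24512 replicate 3, MTAP-null DMSO replicate 1 or 3, MTAP-WT AGI24512 replicate 1 or 3, or MTAP-WT DMSO replicate 3, with an edgeR adjusted p of up to 0.0962.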

How the results depend on the processing

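Of the alternatives tried, scaling moved the numbers of risen and fallen introns the most. In MTAP-null cells the 366 risen introns became 79 with TMM scaling, 209 with summed counts and 168 among features with an authors' adjusted p-value under 0.01, and leaving out each library gave 310 to 387. The 27 fallen became 79 with TMM scaling, 55 with summed counts and 15 without features that carry a transcript name (23 to 28 without a library). Genes whose introns shared a sign numbered 181, and 84 under the stricter p-value, which leaves fewer genes with 2 features (180 to 183 without a library). The 26 genes whose introns differed became 10 without transcript names and 14 under the stricter p-value (19 to 43 without a library). The intraclass correlation of 0.545 became 0.489 with abutting features as 1 and 0.390 for usage (0.509 to 0.550 without a library). In MTAP-WT cells the 29 risen became 5 with TMM scaling (27 to 30 without a library), the 6 fallen were 5 to 6, and the 1 gene whose features differed was 1 to 2. The 6 drug-by-genotype calls were 5 to 9 without a library. Apart from the rescaled values given here, the cause of these shifts was not tested.

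With TMM scaling, log2 changes of named introns turned negative in MTAP-null cells for BCL2L13 (-0.04), CDK10 (-0.14), CLK3 (-0.29), CSNK1E (-0.18 and -0.15), ESPN (-0.20), GALNT18 (-0.15), IDH3A (-0.04 and -0.03), LINC00339 (-0.21), PIEZO1 (-0.04, -0.32 and -0.25), RAI1 (-0.20 and -0.22), RBM39 (-0.01 and -0.03), RBM5 (-0.17, -0.22 and -0.17), RNF111 (-0.05), SLC38A10 (-0.42), SNED1 (-0.29), TIA1 (-0.16), TMCO3 (-0.22), TP53BP1 (-0.14 and -0.08), TRAPPC12 (-0.18 and -0.26), TSGA10 (-0.0027) and UBE2F-SCLY, SCLY, UBE2F (-0.08). In MTAP-WT cells they did so for ESPN (-0.07), SEPT10 (-0.03), SLC38A10 (-0.05), TM9SF1 (-0.17) and TMCO3 (-0.12). With summed counts SLC38A10 was at -0.03 in 1 intron. Under the other alternatives no called change of a named intron turned sign.

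Same-numbered libraries did not deviate together, with correlations of 0.069, 0.038 and 0.008 in MTAP-null and -0.117, -0.016 and 0.062 in MTAP-WT cells, so the numbers are not taken as pairs. With the replicate block the counts were 367 risen, 27 fallen, 181 genes of 1 sign, 24 genes that differed, an intraclass correlation of 0.548, 27 risen and 6 fallen in MTAP-WT cells, and 8 drug-by-genotype calls. DESeq2 has no counterpart of the test within genes and was not run for it. Depth is known for the listed features only, and features with few reads carry wide errors.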
